A study of Mus musculus with 12 samples.

Results

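The genes described here are 33 enzymes, regulators and transporters of cholesterol and fatty acid synthesis, chosen by gene symbol from a list. No measured value was a criterion, but the list was drawn up with earlier results of these data known. All 33 were among the 23991 gene IDs of the files, and 32 of them reached at least 1 FPKM (fragments scaled for transcript length and library size) in at least 3 libraries, the level needed to enter a test. They were measured by RNA sequencing of polyadenylated RNA from CD4+ T cells of male C57BL/6 mice aged 8 to 10 weeks, enriched with magnetic beads by removal of other cells from spleen or lymph node. The 4 groups of 3 libraries were WT cells in baseline medium, Adcy10-/- cells in baseline medium, and each genotype in baseline medium plus polarizing cytokines, all taken after 18 hours. The labels give 1 culture recipe for every library: plate-bound anti-CD3, anti-CD28, IL-1β, IL-6, IL-23 and antibodies against IFNγ and IL-4. What the baseline medium held is therefore not stated, and neither is how the Adcy10-/- allele was made. Libraries are named below by genotype, medium and replicate number, as in WT baseline 1. The labels do not say that replicates came from separate animals, so p-values measure only the spread between these samples.

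Cholesterol is built from acetyl-CoA through mevalonate, isoprenoid diphosphates, squalene and lanosterol, and fatty acids are built from the same precursor by carboxylation, elongation and desaturation. When sterols in the endoplasmic reticulum run low, SCAP carries the SREBP factors to the Golgi. There they are cut and released to switch on most of these enzymes. When sterols are plentiful, INSIG proteins hold SCAP back. Activated T cells draw on both pathways for new membrane as they grow and divide. Adcy10 encodes soluble adenylyl cyclase, which makes cAMP.

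Summed over genes, a library came to 547870 to 594750 FPKM, with 9778 to 9925 genes reaching 1 FPKM. Their absolute depth is unknown, and steps between low values gave relative depths between 0.731 and 1.02 of that of WT baseline 1. The targeted gene, Adcy10, was at 0 FPKM throughout, WT libraries included, and cannot serve as a check on genotype. The summed level of 8 CD4 T cell markers ranged from 1467 to 1950 FPKM. Libraries numbered 1 stood apart in every group: 4 B cell markers (Ms4a1, Cd79a, Cd79b and Pax5) summed to between 1.66 and 5.72 FPKM in those 4 libraries and to between 14.7 and 31.6 FPKM in the other 8. The summed CD4 T cell markers were the reverse. They came to 1797 to 1950 FPKM in the libraries numbered 1 and to 1467 to 1744 FPKM in the others. Singly, Cd3d, Cd3e, Cd3g and Cd28 lay apart, while Cd4, Cd5, Lck and Zap70 overlapped. In bulk RNA, fewer cells of a type and less RNA per cell cannot be told apart.

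Per unit of transcript length, levels differed widely among members of each step. Fdps, which makes farnesyl diphosphate, had the highest median, 114 FPKM over the 12 libraries, followed by Acly, which supplies cytosolic acetyl-CoA from citrate, at 87.6 FPKM, and Srebf2, which encodes the SREBP factor most tied to cholesterol synthesis, at 77.6 FPKM. Idi1, the isopentenyl diphosphate isomerase, stood at 62.2 FPKM and Fasn, the fatty acid synthase, at 53.6 FPKM. Nr1h2, which encodes the sterol-sensing liver X receptor beta, had a median of 53.5 FPKM. At the low end were the desaturases Fads2 (1.88 FPKM) and Scd1 (3.89 FPKM), the sterol reductase Tm7sf2 (2.95 FPKM) and the sterol ketoreductase Hsd17b7 (3.87 FPKM). Abca1, which exports sterol from the cell, was the member that missed the filter, at 0.0669 to 0.398 FPKM. The sterol enzymes Fdft1, Sqle and Cyp51 had medians of 24.9, 33.6 and 37.2 FPKM. Those lay above the early enzymes Acaca (13.3 FPKM) and Acat2 (18.6 FPKM) but below Hmgcs1 (38.7 FPKM), Idi1, Acly and Fdps.

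**Figure D1:**
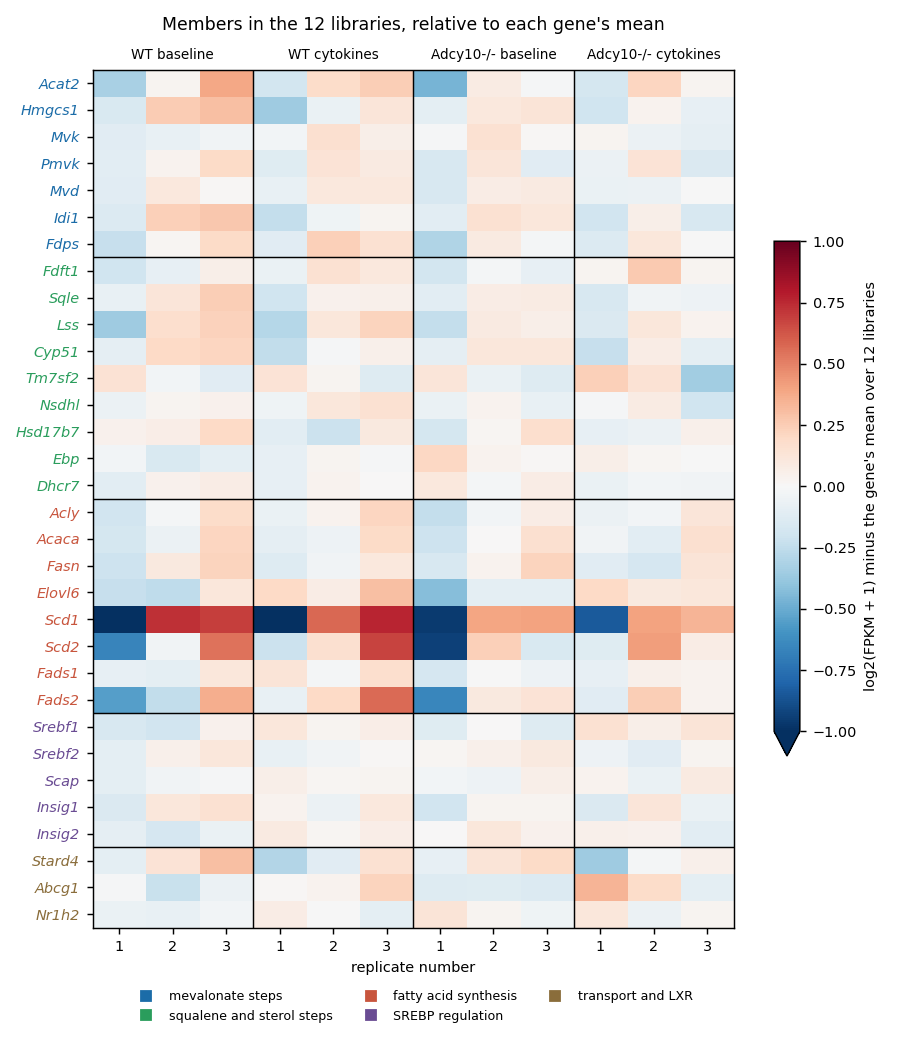
Level of each of the 32 members past the filter (rows, coloured by role) in each of the 12 libraries (columns, 3 per group), as log2(FPKM + 1) minus the gene's mean over the libraries. The colour scale runs from -1 to 1, and Scd1 goes below its lower end in WT baseline 1 and WT cytokines 1. The columns numbered 1 are blue for most rows, with Scd1 and Scd2 the deepest.

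Since synthesis of sterols is switched by factors that bind promoters, promoter sequences of 4 members that differed between media in a fit below are shown first, as examples chosen with those results known. They are the 150 bases before the start site in RefSeq's GRCm38.p6 promoter table, while the files' own build was mm9, per the submitters' processing notes. Hmgcs1 lies at chr13:119690201-119690350 (plus strand), Idi1 at chr13:8885456-8885605 (plus strand), Cyp51 at chr5:4104698-4104847 (minus strand) and Elovl6 at chr3:129532236-129532385 (plus strand). Capitals mark matches, on either strand, of the sterol regulatory element TCACNCCAC, which SREBP binds, and of the CCAAT box, which NF-Y binds and which reads ATTGG from the other strand. Each is printed 5′ to 3′ on the gene's strand.
Hmgcs1: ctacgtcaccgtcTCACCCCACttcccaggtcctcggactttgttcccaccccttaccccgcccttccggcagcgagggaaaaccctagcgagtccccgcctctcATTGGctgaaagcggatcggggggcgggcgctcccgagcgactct
Idi1: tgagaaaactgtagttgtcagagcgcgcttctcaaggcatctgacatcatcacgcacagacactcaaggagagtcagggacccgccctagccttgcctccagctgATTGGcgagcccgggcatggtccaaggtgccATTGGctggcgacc
Cyp51: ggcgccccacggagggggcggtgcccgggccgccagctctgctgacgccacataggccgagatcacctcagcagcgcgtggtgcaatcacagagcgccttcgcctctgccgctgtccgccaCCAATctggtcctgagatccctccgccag
Elovl6: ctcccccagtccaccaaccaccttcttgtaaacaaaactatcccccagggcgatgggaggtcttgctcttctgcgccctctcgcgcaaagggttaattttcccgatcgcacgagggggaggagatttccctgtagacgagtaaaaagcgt
Hmgcs1 held both motifs, Idi1 held the CCAAT box at 2 places, Cyp51 held it once, and the Elovl6 stretch held neither. Over windows of 300 bases (250 before to 50 after the start), 25 of the 33 members had an entry, with 33 windows between them. The 9-letter sterol element was in 1 of those 33 windows and in 1.24% of all 32851 windows of the table. Only that exact string was searched, with any letter at N, so variants of it were not counted. The CCAAT box was in 19 of the 33 windows, or 57.6%, and in 37.4% of all windows. The motifs share no position with each other in the stretches shown. Srebf1 has windows at 3 start sites and is not shown, and Sqle, Fdft1, Stard4 and Abcg1 were not matched to an entry. A match describes letters only and says nothing of binding in these cells.

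The first comparison asked how the polarizing cytokines moved these genes. Averaged over the genotypes, 2 of the 32 members rose and 0 fell: Elovl6, an elongase that extends palmitate, and Srebf1, which encodes the SREBP factor most tied to fatty acid synthesis. Across all 10126 genes tested, 13.2% passed in this comparison, 6.57% higher and 6.68% lower, a larger share than the 2 of 32 members. In WT cells alone 0 of 32 members passed, against 4.93% of all genes, and in Adcy10-/- cells alone 0 of 32 passed, against 4.27%. At an unadjusted p under 0.05 there were 3 of 32 members in WT, 4 in Adcy10-/- and 4 in the average. Across all 10126 genes the counts were 1873, 1551 and 2640, each a larger share than among the members. These counts are from limma, fitted to log2(FPKM + 1) over 4 group means, with Benjamini-Hochberg adjustment over all genes tested and a threshold of 0.05. Fold changes on this scale understate the change of genes near 1 FPKM.

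Elovl6 stood at 5.51, 5.44 and 7.30 FPKM in WT baseline, at 4.70, 6.14 and 6.16 in Adcy10-/- baseline, at 7.80, 7.07 and 8.43 in WT with cytokines and at 7.78, 7.20 and 7.30 in Adcy10-/- with cytokines, for numbers 1, 2 and 3 in turn. Both cytokine groups were high, and the groups of 6 overlapped only through WT baseline 3. The means were 5.87 ± 0.883 FPKM in baseline medium and 7.60 ± 0.511 FPKM with cytokines (SD, n = 6 libraries each), a log2 difference of 0.33 (SE 0.08, limma adjusted p = 0.0205). The difference was 0.31 in WT (adjusted p = 0.156) and 0.35 in Adcy10-/- (adjusted p = 0.140). It was higher with cytokines in 6 of 6 pairs of libraries with the same genotype and number, by 0.18 to 0.62. The pairs numbered 1 gave 0.43 in WT and 0.62 in Adcy10-/-, and the others gave 0.18 to 0.33.

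Srebf1 stood at 26.4, 25.9 and 30.5 FPKM in WT baseline, at 27.2, 29.7 and 27.0 in Adcy10-/- baseline, at 32.2, 30.3 and 31.2 in WT with cytokines and at 33.0, 31.0 and 32.5 in Adcy10-/- with cytokines. Again WT baseline 3 was the baseline library that reached into the cytokine range. The means were 27.8 ± 1.88 and 31.7 ± 1.03 FPKM (SD, n = 6 libraries each), a log2 difference of 0.18 (SE 0.05, limma adjusted p = 0.0230), and 6 of 6 pairs were higher with cytokines. Leaving out 1 library at a time, Elovl6 passed in 10 of 12 fits (adjusted p from 0.00504 to 0.0600) and Srebf1 in 6 of 12 (0.00481 to 0.0669). Neither passed without WT baseline 2 or without Adcy10-/- cytokines 1. Elovl6 passed and Srebf1 did not without Adcy10-/- baseline 1, Adcy10-/- baseline 3, WT cytokines 1 or Adcy10-/- cytokines 3. In the WT comparison the reverse held once: without WT baseline 3 both genes passed.

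Libraries with the same genotype and number deviated together from their group means, so the number was also fitted as a replicate block, once shared by both genotypes and once within each genotype. The shared block is meant below unless stated. With it, 9 of 32 members passed in the average over genotypes, or 28.1%, beside 25.9% of all genes tested (11.7% higher and 14.3% lower), so the share of members was near that of all genes. The 4 that rose were Elovl6, Srebf1, the squalene synthase Fdft1 and the sterol exporter Abcg1. The 5 that fell were 4 enzymes of sterol synthesis, Hmgcs1, Idi1, Sqle and Cyp51, together with Stard4, which carries sterol between membranes.

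Among enzymes up to the isoprenoids, Hmgcs1, the HMG-CoA synthase, stood at 35.1, 46.9 and 48.3 FPKM in WT baseline and at 30.4, 37.3 and 42.7 with cytokines. In Adcy10-/- cells it stood at 36.4, 42.2 and 42.9 FPKM in baseline medium and at 33.8, 40.2 and 36.8 with cytokines. Each cytokine library lay below its numbered partner, while the groups overlapped. The log2 difference was -0.18 (limma with the replicate block, adjusted p = 0.0196), with 6 of 6 pairs lower by -0.32 to -0.07.

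Idi1 stood at 56.9, 74.1 and 75.7 FPKM in WT baseline, at 52.9, 60.6 and 63.9 in WT with cytokines, at 58.1, 69.7 and 67.5 in Adcy10-/- baseline and at 54.6, 65.1 and 56.0 in Adcy10-/- with cytokines. It too was lower with cytokines in 6 of 6 pairs. Its log2 difference was -0.18 (limma with the replicate block, adjusted p = 0.0135). The other 5 enzymes of this stretch, Acat2, Mvk, Pmvk, Mvd and Fdps, did not pass with or without the block.

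Of the 9 enzymes from squalene to cholesterol, Fdft1 rose, while Sqle and Cyp51, which act after it, fell. Fdft1 stood at 21.5, 23.4 and 26.0 FPKM in WT baseline, at 23.7, 27.7 and 26.9 in WT with cytokines, at 21.8, 24.5 and 23.4 in Adcy10-/- baseline and at 25.3, 30.0 and 25.3 in Adcy10-/- with cytokines. The log2 difference was 0.17 (limma with the replicate block, adjusted p = 0.0171), higher in 6 of 6 pairs. Sqle, the squalene epoxidase, ranged from 31.1 to 39.8 FPKM in the baseline libraries and from 29.1 to 34.7 with cytokines, with a log2 difference of -0.11 (adjusted p = 0.0257), lower in 6 of 6 pairs. Cyp51, the lanosterol demethylase, stood at 34.4, 42.2 and 42.7 FPKM in WT baseline, at 30.7, 36.3 and 38.1 in WT with cytokines, at 34.4, 39.8 and 39.7 in Adcy10-/- baseline and at 31.0, 38.6 and 34.2 in Adcy10-/- with cytokines. That is a log2 difference of -0.16 (adjusted p = 0.00745), also lower in 6 of 6 pairs. Lss, Tm7sf2, Nsdhl, Hsd17b7, Ebp and Dhcr7 did not pass.

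Of the 8 fatty acid genes, 7 had a difference above 0 in the average over genotypes, and their median was 0.08 on the log2 scale, beside 0.02 for all 32 members and -0.02 for all genes tested, of which 4396 of 10126 were above 0. Without the 4 libraries numbered 1, 5 of the 8 were above 0 and their median was 0.05. Elovl6 was the 1 that passed. Scd2, a stearoyl-CoA desaturase, was higher with cytokines in 6 of 6 pairs, by 0.14 to 0.81. The pairs numbered 1 gave 0.45 in WT and 0.81 in Adcy10-/-, and the others gave 0.14 to 0.23. The level of Scd2 ranged from 18.6 to 59.0 FPKM over the libraries. Its log2 difference of 0.33 did not pass (limma adjusted p = 0.439). Scd2 and the desaturase Fads2 passed only where the number was blocked within each genotype (0.33 with adjusted p = 0.0166, and 0.28 with adjusted p = 0.0372). Acly, the carboxylase Acaca, Fasn, Scd1 and the desaturase Fads1 did not pass in any of the 3 fits.

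Among the regulators and transporters, Srebf2, Scap, Insig1, Insig2 and Nr1h2 did not pass. Stard4 stood at 10.7, 12.7 and 14.4 FPKM in WT baseline, at 9.19, 10.5 and 12.8 in WT with cytokines, at 10.8, 12.7 and 13.2 in Adcy10-/- baseline and at 8.76, 11.3 and 11.9 in Adcy10-/- with cytokines. Every pair was lower with cytokines, and the log2 difference was -0.19 (limma with the replicate block, adjusted p = 0.00403). Abcg1 ranged from 4.33 to 5.17 FPKM in the baseline libraries and from 4.82 to 6.85 with cytokines, a log2 difference of 0.23 (adjusted p = 0.0449 with the block and 0.0693 without). Abca1, tested only when no filter on low values was used, gave 0.17 (adjusted p = 0.0498). Its mean was 0.126 FPKM in baseline medium and 0.264 FPKM with cytokines, so low that log2(FPKM + 1) understates the change.

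Within single genotypes the blocked fit called 4 members lower in WT, Stard4, Cyp51, Hmgcs1 and Idi1 (adjusted p from 0.0306 to 0.0484), beside 7.43% of all genes lower and 14.8% in either direction. In Adcy10-/- cells it called 1, Elovl6 (adjusted p = 0.0497), beside 10.7% of all genes. With the number blocked within each genotype, which is the pairing that the deviations showed in both media, 5 members passed in WT (the same 4 and Elovl6), 3 in Adcy10-/- (Elovl6, Fdft1 and Stard4) and 11 in the average (the 9 above, Scd2 and Fads2), beside 15.5%, 11.8% and 26.7% of all genes. Counted by pairs and without a fit, 6 of 32 members were higher with cytokines in 6 of 6 pairs (Elovl6, Srebf1, Fdft1, Abcg1, Fads1 and Scd2), beside 13.2% of all genes, and 5 were lower in 6 of 6 (Cyp51, Hmgcs1, Idi1, Sqle and Stard4), beside 16.5%. The difference between the genotypes in the cytokine effect was tested as an interaction: 0 of 32 members passed in limma with or without the block, as did 0 of all genes (0% in both fits), with 112 genes at an unadjusted p under 0.05 without the block.

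Without the 4 libraries numbered 1, a choice made after seeing the data, the count in the average fell to 1, Idi1 (log2 difference -0.22, limma adjusted p = 0.0333), beside 9.26% of all genes. With the block and without those 4 libraries it was 2, Idi1 (adjusted p = 0.0281) and Hmgcs1 (adjusted p = 0.0488), both lower, beside 12.6% of all genes. Elovl6 and Srebf1 did not pass there, with differences of 0.23 (adjusted p = 0.0791) and 0.14 (adjusted p = 0.161).

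Markers of macrophages and neutrophils had higher values with cytokines in most pairs. The summed level of 5 macrophage and monocyte markers was higher with cytokines in 6 of 6 pairs, at 15.1 to 65.5 FPKM in baseline medium and 21.2 to 102 FPKM with cytokines, and most of it was Lyz2. Of the neutrophil markers, S100a8 was higher in 6 of 6 pairs (0.160 to 8.66 FPKM in baseline medium and 0.338 to 27.5 FPKM with cytokines), and the sum of S100a8 and S100a9 in 5 of 6. Lyz2, S100a8 and S100a9 did not pass in limma without a block (adjusted p = 0.342, 0.250 and 0.356). The summed B cell markers were higher with cytokines in 1 of 6 pairs and overlapped, at 1.66 to 31.6 FPKM in baseline medium and 2.33 to 23.4 FPKM with cytokines. They did not move together: Cd79b was higher in 6 of 6 pairs, and Ms4a1, Cd79a and Pax5 in 1 of 6 each. Among the T cell markers, Cd4 fell without overlap, from 139 to 179 FPKM in baseline medium to 119 to 133 FPKM with cytokines (log2 difference -0.35, limma adjusted p = 0.00344), and Cd5 rose (0.36, adjusted p = 0.00114). The part of these markers' cells in the members' differences was not tested.

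**Figure D2:**
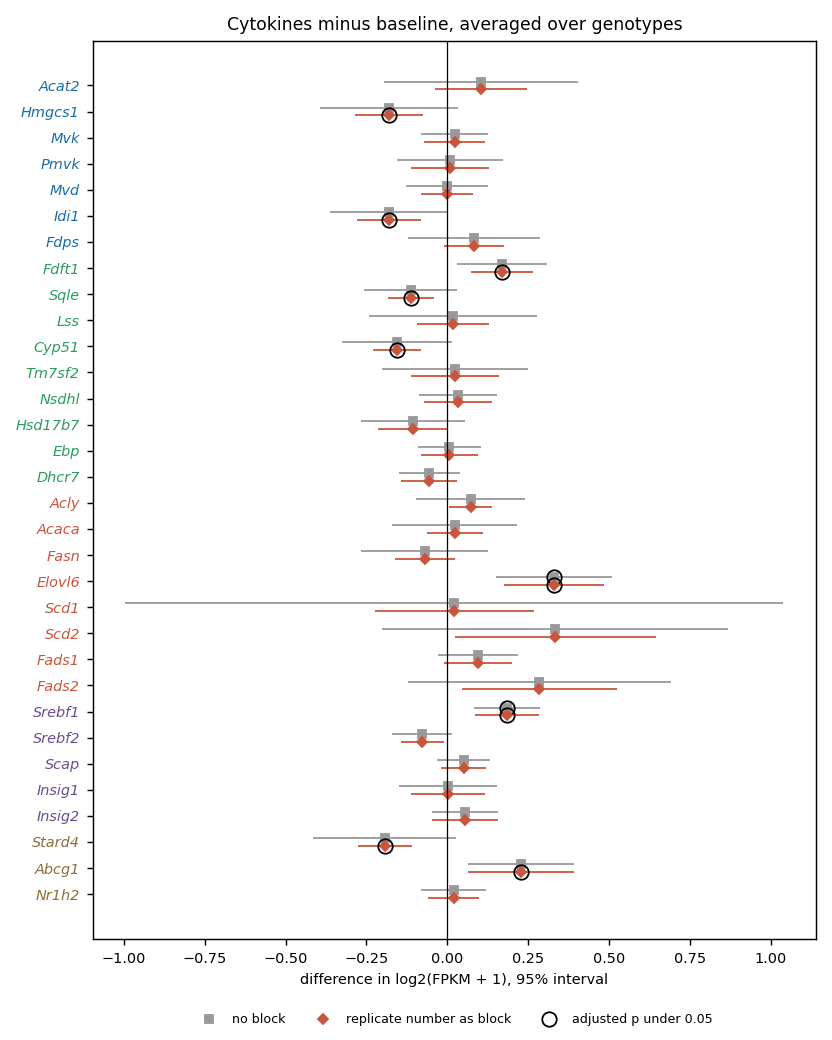
Cytokines minus baseline for each of the 32 members, averaged over genotypes, as a difference in log2(FPKM + 1) with its 95% interval, without a block (grey squares) and with the replicate number as a block (red diamonds). Black rings mark an adjusted p under 0.05. Elovl6 and Srebf1 are ringed in both fits and 7 more in the blocked fit, 5 of them below 0.

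A further list of 40 genes of sterol and fatty acid metabolism was counted in the same way, and 32 of them passed the filter. In the average over genotypes 2 rose and 2 fell, beside 13.2% of all genes. Lpcat3, which places unsaturated fatty acids into phospholipids, was between 20.3 and 22.7 FPKM in the 6 baseline libraries and between 27.0 and 29.0 FPKM in the 6 with cytokines, with no overlap. Its log2 rise was 0.36 in WT (limma adjusted p = 0.00434) and 0.37 in Adcy10-/- (adjusted p = 0.00348). Npc2, which moves cholesterol out of lysosomes, rose by 0.39 (adjusted p = 0.00908). Rxra, which encodes a partner of the liver X receptors, fell by 0.36 (adjusted p = 0.00693), and Ggps1, which makes geranylgeranyl diphosphate, fell by 0.19 (adjusted p = 0.0180).

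The second comparison asked whether loss of Adcy10 altered these genes in either medium. In limma 0 of 32 members passed in baseline medium, 0 with cytokines and 0 in the average over media, and the share of all genes called was 0% in each. At an unadjusted p under 0.05 the counts of members were 2, 0 and 1, and with the replicate block the counts past the adjusted threshold were again 0 in all 3, beside 0%, 0% and 0.0296% of all genes. Across all genes, 118, 202 and 180 had an unadjusted p under 0.05. The median difference of the members, Adcy10-/- minus WT, was -0.04 in baseline medium and -0.03 with cytokines.

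The 95% intervals without a block lay within 0.5 of 0 on the log2 scale for 28 of 32 members in baseline medium and 29 of 32 with cytokines. The widest were those of Scd1, from -1.52 to 1.35 in baseline medium and from -1.53 to 1.35 with cytokines. With the replicate block the lowest and highest bounds of any member were -0.67 and 0.34 in baseline medium, where the number was not taken to pair the genotypes, and -0.52 and 0.35 with cytokines.

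The members with the smallest p in baseline medium were Ebp, a sterol isomerase, and Insig2. Ebp stood at 19.3, 17.5 and 18.3 FPKM in WT and at 22.8, 20.2 and 19.8 in Adcy10-/-, so the groups did not overlap, with a log2 difference of 0.18 (SE 0.06, limma adjusted p = 1.00). Insig2 stood at 4.14, 3.88 and 4.23 FPKM in WT and at 4.48, 4.91 and 4.65 in Adcy10-/-, a log2 difference of 0.16 (SE 0.07, adjusted p = 1.00). Mvk, the mevalonate kinase, did not overlap either, at 11.2 to 11.8 FPKM in WT and 12.1 to 13.7 in Adcy10-/-. These 3 of 32 members were the ones higher without overlap, beside 2.57% of all genes.

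With cytokines 0 of 32 members lay apart in either direction, beside 1.68% of all genes higher and 3.40% lower in Adcy10-/-. Mvk was then at 11.9, 13.7 and 12.7 FPKM in WT and at 12.4, 11.6 and 11.3 in Adcy10-/-. The interaction for Mvk was -0.23 and that for Insig2 was -0.22 on the log2 scale, and neither passed (limma adjusted p = 1.00 for both).

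**Figure D3:**
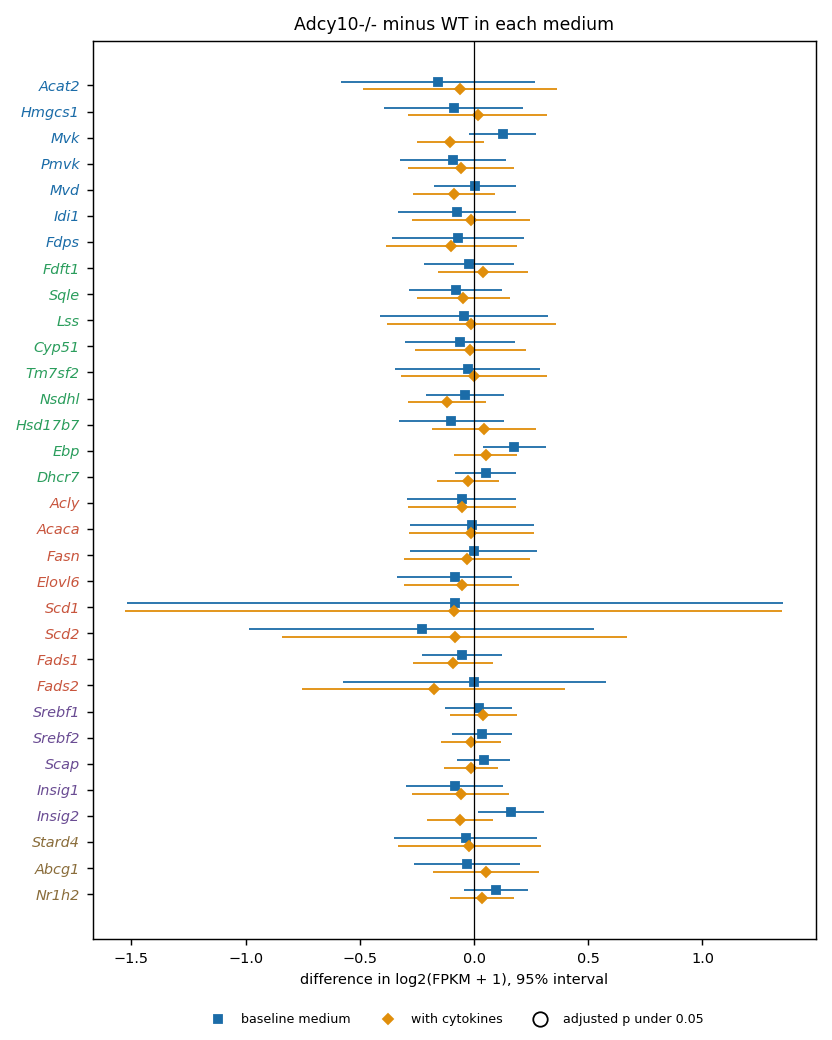
Adcy10-/- minus WT for each of the 32 members, as a difference in log2(FPKM + 1) with its 95% interval, in baseline medium (blue squares) and with cytokines (orange diamonds). No point is ringed, since 0 members had an adjusted p under 0.05, and the interval of Scd1 is the widest.

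More members passed a test between replicate numbers than between media or genotypes. What a number stands for is not stated in the labels, and the comparison was chosen after seeing the data. In a limma model of group and number, 18 of 32 members were lower in the libraries numbered 1 than in those numbered 2 and 3, and 1 was higher. The model counts each library as separate, although libraries of the same genotype and number deviated together. Its SEs and p-values, here and below, may therefore be too small and describe these libraries only. Across all genes, 19.1% were lower and 13.1% higher. The median difference of the members was -0.16 on the log2 scale, beside -0.02 for all genes. Leaving out each library in turn gave 15 to 19 members called; Insig1 passed in 3, Pmvk in 4, Fdft1 in 9, and Mvd and Tm7sf2 in 10 of these 12 fits, and the other 14 in 12 of 12.

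The desaturases Scd1, Scd2 and Fads2 had the largest differences of the 32 members. Scd1 stood at 0.477, 0.910, 0.646 and 1.07 FPKM in the libraries numbered 1 of WT baseline, Adcy10-/- baseline, WT cytokines and Adcy10-/- cytokines, and at 3.70 to 5.30 FPKM in the other 8 libraries. Its log2 difference was -1.61 (SE 0.12, limma adjusted p = 4.64e-05). Of the libraries numbered 1, only Adcy10-/- cytokines 1 reached 1 FPKM, so Scd1 entered the test through the libraries where it was high. Its p-value and its place in the counts of members are therefore description only. Scd2 stood at 22.6, 18.6, 31.3 and 33.4 FPKM in the libraries numbered 1, in the same order, and at 32.7 to 59.0 FPKM in the others, a log2 difference of -0.72 (SE 0.15, adjusted p = 0.00545). Scd1 and Scd2 are paralogs, and how fragments that match both were assigned is not given in the sources used here. Fads2, the first desaturase of polyunsaturated fatty acids, gave -0.52 (adjusted p = 0.00725). At 0.886 FPKM in WT baseline 1 and 0.751 FPKM in Adcy10-/- baseline 1, it too needed the other libraries to enter the test. Of the 8 fatty acid genes 6 were lower, with Acly, Acaca and Fasn at -0.21, -0.19 and -0.23, while Elovl6 and the desaturase Fads1 (-0.08, adjusted p = 0.281) did not pass.

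Of the 7 genes up to farnesyl diphosphate, 6 were lower in the libraries numbered 1. Acat2, which joins 2 acetyl-CoA units, stood at 13.0 to 16.0 FPKM in them and at 18.1 to 24.1 FPKM in the others, a log2 difference of -0.43 (SE 0.07, limma adjusted p = 0.00168). Fdps stood at 91.6 to 104 FPKM against 111 to 134 FPKM, a difference of -0.29 (adjusted p = 0.00138). Hmgcs1, Idi1, Pmvk and Mvd gave -0.30, -0.25, -0.17 and -0.16, and Mvk was the 1 that did not pass. In this stretch of the pathway Acat2, Hmgcs1, Mvd and Fdps had no overlap between the 4 libraries and the other 8.

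From squalene on, 4 of 9 genes were lower and 1 was higher. Lss, the lanosterol synthase, stood at 14.1 to 16.5 FPKM in the libraries numbered 1 and at 18.9 to 21.7 FPKM in the others, a log2 difference of -0.39 (SE 0.05, limma adjusted p = 0.000857). Cyp51, Sqle and Fdft1 gave -0.25, -0.20 and -0.16. Tm7sf2 was the 1 member that was higher, at 3.30 to 3.66 FPKM against 2.10 to 3.37 FPKM (log2 difference 0.24, adjusted p = 0.0184). Stard4 (-0.31, adjusted p = 0.000663) and Insig1 (-0.16, adjusted p = 0.0438) were lower, while Srebf1, Srebf2, Scap, Insig2, Abcg1 and Nr1h2 did not pass.

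In all, 8 of 32 members were lower in the 4 libraries than in the other 8 with no overlap (Acat2, Acly, Fdps, Hmgcs1, Lss, Mvd, Scd1 and Sqle), beside 7.19% of all genes. The number 1 library was the lowest of its group in all 4 groups for 13 of 32 members, beside 16.2% of all genes. The further list of 40 genes gave 10 lower and 3 higher of 32. The summed level of the 4 B cell markers was lower in the same 4 libraries, as given above. Of these markers Ms4a1 overlapped, at 1.13 FPKM in Adcy10-/- baseline 1 and 0.969 FPKM in Adcy10-/- cytokines 2. Levels of Cd8a were also lower (0.07 to 0.22 against 0.93 to 2.52 FPKM). Cd8a and Cd8b1 together overlapped, at 8.85 to 10.5 against 8.43 to 14.7 FPKM. The red cell markers Hba-a1 and Hbb-b1 gave log2 differences of -2.20 and -2.14 (limma adjusted p = 0.00105 and 0.0112). The 3 red cell markers summed to 0.513 to 1.27 FPKM in the libraries numbered 1 and to 0.443 to 131 FPKM in the others. Within the others, libraries numbered 2 gave 0.443 to 2.84 FPKM and those numbered 3 gave 16.1 to 131 FPKM. The neutrophil markers S100a8 and S100a9 gave -1.59 and -1.80 (adjusted p = 0.00707 and 0.00465), summing to 0.447 to 10.1 against 4.53 to 59.6 FPKM. Lyz2 was high in WT baseline 1 and WT cytokines 1 (60.9 and 93.5 FPKM, against 15.7 to 36.8 FPKM in the other 4 WT libraries) but not in Adcy10-/- baseline 1 and Adcy10-/- cytokines 1 (11.8 and 17.8 FPKM). Relative depth overlapped, at 0.731 to 1 in the libraries numbered 1 and 0.766 to 1.02 in the others. The part of other cells in these differences was not tested.

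**Figure D4:**
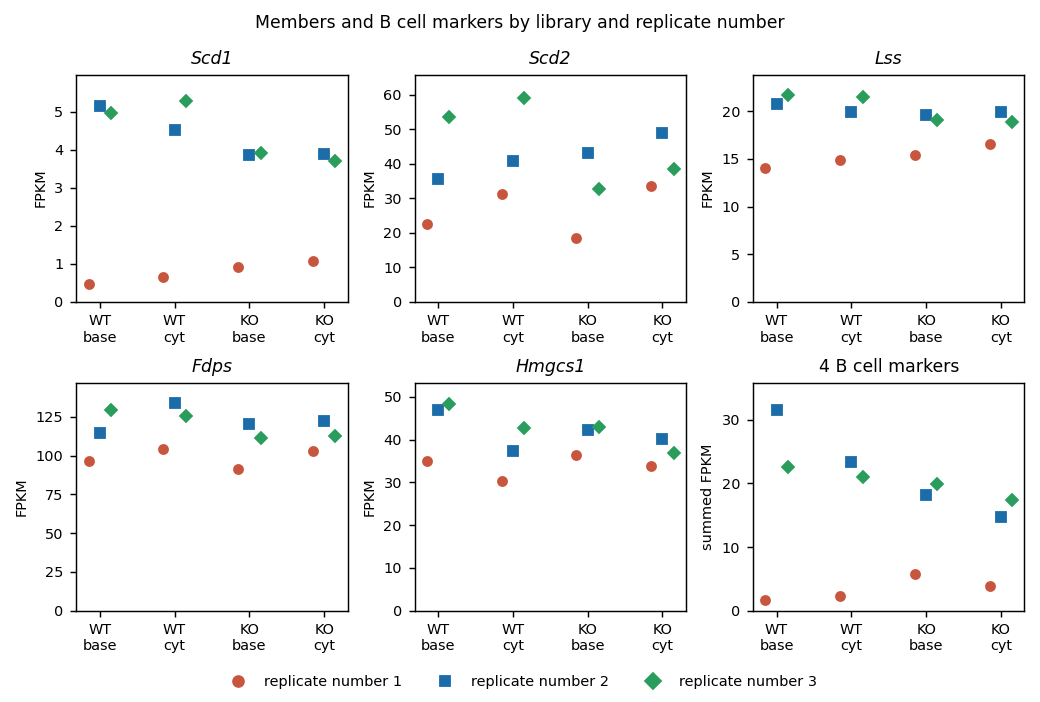
FPKM of 5 members and the summed FPKM of 4 B cell markers (vertical axes from 0) in each of the 12 libraries, by group and coloured by replicate number; KO stands for Adcy10-/-. The libraries numbered 1 lie below the other 8 for Scd1, Lss, Fdps and Hmgcs1 and for the markers, and overlap them for Scd2.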

How the data were processed

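Polyadenylated RNA of 12 libraries (4 groups of 3) was analysed. The authors deposited FPKM per gene. Per the submitters' processing notes, the build was mm9 and the tools were STAR 2.4.0f1, SAMtools 0.1.19, Cufflinks and HTSeq, the last 2 with no version. FPKM holds no read counts, so absolute depth is unknown and precision rests on the spread between libraries; whether counting used strand is not given in the sources used here. Entries of the same gene ID were summed. The 33 members and all lists were chosen with earlier results of these data known.

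Values were analysed as log2(FPKM + 1) for genes that reached 1 FPKM in 3 or more libraries, with limma 3.58.1 in R 4.3.3 (4 group means, empirical Bayes with a trend), and Benjamini-Hochberg adjustment over 10126 genes. The pipeline was tested on simulated data. Tables and figures used Python 3.11.15, pandas 2.3.3, numpy 2.4.6 and matplotlib 3.10.9. Alternatives were another pseudocount, filter, scaling, variance model or set of groups, each library left out, and the replicate block; fits without the libraries numbered 1 were added after seeing the data.

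Values per library are given for members that passed without a block and for those with the smallest p; other members given in full were chosen after their values were seen, and some listed genes are not reported here. Replicate numbers were taken from the sample titles. Libraries of 1 genotype that share a number had residual correlations of 0.294 to 0.536 (6 pairs), so the number pairs libraries for the cytokine comparisons. Across genotypes they correlated at 0.262 to 0.422 with cytokines. In baseline medium the correlations were 0.523 for number 1, 0.0736 for number 2 and 0.371 for number 3. The number was not taken to pair the genotypes there, because the lowest fell below the minimum of 0.1 that was used.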

Additional observations from a re-analysis of the deposited data

How the results depend on the processing

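Genotype and interaction counts stayed at 0 members in every alternative run, and no member named for a call changed direction. With the replicate block the count of members called for the cytokine effect was 4 in WT, 1 in Adcy10-/- and 9 in the average, and with the block within genotype 5, 3 and 11. Without the 4 libraries numbered 1 the average gave 1. Leaving out 1 library at a time gave 0 to 2 in WT and 0 to 3 in the average: 0 without WT baseline 2 or Adcy10-/- cytokines 1, 1 without Adcy10-/- baseline 1, Adcy10-/- baseline 3 or WT cytokines 1, and 2 in WT without WT baseline 3. Other pseudocounts, filters and scalings gave 2 or 3 in the average. The cause of these changes was not tested. With 3 libraries a group, absolute depth unknown and replicate numbers spread widely, differences as small as those of most members could be missed.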

Other observations

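Leaving out the libraries numbered 1, Scd1 stood at 5.16 and 4.98 FPKM in WT baseline and at 4.52 and 5.30 FPKM in WT with cytokines, against 3.87, 3.91, 3.90 and 3.70 FPKM in the 4 Adcy10-/- libraries. All 4 Adcy10-/- libraries were lower, by 0.30 on the log2 scale in the average over media, which did not pass over all genes (limma adjusted p = 0.627, and 0.431 with the replicate block). In the libraries numbered 1 the order was the other way, at 0.477 and 0.646 FPKM in WT and 0.910 and 1.07 FPKM in Adcy10-/-. Scd1 was singled out here after its values were seen.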
